A study of Mus musculus with 5 samples.

Results

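The growth hormone and insulin-like growth factor (IGF) axis was followed in mouse hepatocytes through 10 genes, chosen by name: Igf1, Igfals, Ghr, Stat5b, Socs2, Cish, Igfbp1, Igfbp2, Igfbp4 and Insr. All 10 were found among the 31053 genes listed in the count tables. The study sequenced single liver cells in droplets from C57BL/6J mice, with 5 libraries and 1 library per group. The groups were mice at postnatal day 14 (P14), an adult control, and adult mice operated and taken 24 h, 48 h and 96 h after partial hepatectomy, an operation that removes a large portion of the liver and is followed by regrowth. The protocol gives 8 weeks as the age of the adult mice, the control included. No transgene or drug is named for any group. A hepatocyte barcode had at least 5000 unique molecular identifiers (UMIs), between 10% and 30% of them mitochondrial, and at least 1% from Alb, Apoa1 and Ttr together. There were 5691 such barcodes. The adult control held 925 of them and P14 2106, and the operated libraries held 1170 (24 h), 719 (48 h) and 771 (96 h). All 14 hepatocyte markers reached at least 5 CPM (counts-per-million) in every library.

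Growth hormone from the pituitary binds the receptor GHR on hepatocytes and, through the kinase JAK2, activates the transcription factor STAT5B. Activated STAT5B drives transcription of Igf1, of Igfals, whose product holds IGF-1 in a long-lived serum complex, and of the feedback inhibitors Socs2 and Cish. IGF-binding proteins control how much IGF reaches its receptor, and the gene of one of them, Igfbp1, is repressed by insulin acting through INSR and FOXO transcription factors. The liver is the main source of circulating IGF-1.

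On GRCm38, with the gene models of GENCODE M21, the genes lie as follows: Igf1 at chr10:87858265-87937042 (plus strand), Igfals at chr17:24865997-24882010 (plus), Ghr at chr15:3317760-3583492 (minus), Socs2 at chr10:95385362-95417180 (minus), Cish at chr9:107296026-107302784 (plus) and Insr at chr8:3122061-3279617 (minus). Stat5b at chr11:100780731-100850724 (minus), Igfbp1 at chr11:7197782-7202546 (plus) and Igfbp4 at chr11:99041244-99054392 (plus) share a chromosome, and Igfbp2 is at chr1:72824503-72852474 (plus). All are protein-coding.

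Levels are given as CPM of non-mitochondrial UMIs summed over the hepatocyte barcodes of a library. With 1 library per group there is no replicate and no test. The intervals given are 95% exact intervals (Poisson for a level, conditional binomial for a ratio, Clopper-Pearson for a share) and cover counting error only, not the differences between animals. A gene was called different when log2((CPM + 1)/(CPM + 1)) over the adult control reached 1 in size, a 2-fold difference, among genes that reached 5 CPM in one or both libraries. Folds and their intervals are ratios of CPM without the added 1, whereas log2 ratios over the adult control include it. At low CPM a fold and its log2 ratio therefore differ. All 4 comparisons share the adult control.

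The summed hepatocyte counts held between 13316829 and 64576753 non-mitochondrial UMIs per library, and the median barcode had from 18527 (adult control) to 38922.5 UMIs (P14). Empty droplets, taken from low barcode ranks down to 60000, held a mean of 290 to 1328 UMIs each, the most in the adult control, so all 10 genes were also counted outside cells. Libraries shared at most 2 hepatocyte barcodes, and 3 hepatocyte barcodes in all also met the marker gate of another cell class. T and NK cell markers summed to between 4.03 and 25.2 CPM in hepatocyte barcodes, endothelial markers to between 19.7 and 40.3 CPM and macrophage or monocyte markers to between 6.55 and 20.3 CPM. Neutrophil markers summed to 11.9 CPM in the adult control, 108 CPM at 24 h and 202 CPM at 48 h, mostly S100a8 and S100a9. The cholangiocyte list summed to 245 to 442 CPM mostly through Sorbs2 and Onecut2, while Krt19 was at 0 in the 4 adult libraries. The mesenchymal list summed to 6.68 CPM in the adult control, between 5.09 and 12.3 CPM in the operated libraries and 47.6 CPM in P14, mostly Reln, with Col1a1 at 0 in all 5, and its part in the P14 results was not tested. All 4 adult libraries carried Y-linked transcripts (Ddx3y 112 to 140 CPM) and P14 carried 1 UMI from 4 Y-linked genes together and 840 CPM of Xist, so in P14 age and sex cannot be told apart. The labels give neither sex nor the number of animals, and a lane code in them differs between the adult control and the other libraries, so lane and control group cannot be told apart. The labels' protocol also lists the adult control among the operated animals, against its own title, and it was taken as the control.

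At 24 h, 5 of the 10 genes were at least 2-fold lower than in the adult control (Igfals, Ghr, Stat5b, Socs2 and Cish) and 1 was at least 2-fold higher (Igfbp1). Of all 9028 genes measured in that comparison, 7.13% were 2-fold lower and 8.51% were 2-fold higher. At 48 h the lower genes were again 5 in number (Igfals, Ghr, Socs2, Igfbp2 and Cish) and Igfbp1 again the only higher one, against 7.63% of all genes lower and 8.3% higher. Cish, at 2.83 CPM at 48 h, reached 5 CPM in that comparison only in the control. Scaling by trimmed mean of M-values (TMM) left 3 lower genes at 48 h, with Igfals and Igfbp2 short of 2-fold. None of the 10 was past 2-fold in either direction at 96 h, where 4.07% of all genes were higher and 1.88% lower. In P14, Igfbp1, Igfbp2 and Socs2 were higher and Cish was lower, against 7.89% of all genes higher and 13.8% lower. The median log2 ratio of the 10 genes was -0.93 (24 h), -0.98 (48 h), -0.22 (96 h) and 0.19 (P14), beside medians over all genes of -0.00086, -0.08, 0.04 and -0.26. In P14, TMM scaling moved the median log2 ratio of all genes from -0.26 to 0.02, after which Cish no longer reached 2-fold and the share of higher genes among all genes called went from 36.3% to 58.1%. Acute-phase genes moved in the same libraries, with 11 of 12 at least 2-fold higher at 24 h and 12 of 12 at 48 h. At 96 h 2 of the 12 were higher and 2 lower, and in P14 1 was higher and 6 lower, with a median log2 ratio of -0.91. Orm1, Orm2 and Saa3 passed the expression filter in P14 only through the control. Neither the lower count nor the median of P14 is therefore read as a result. The part of the acute-phase genes in these results was not tested.

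**Figure D1:**
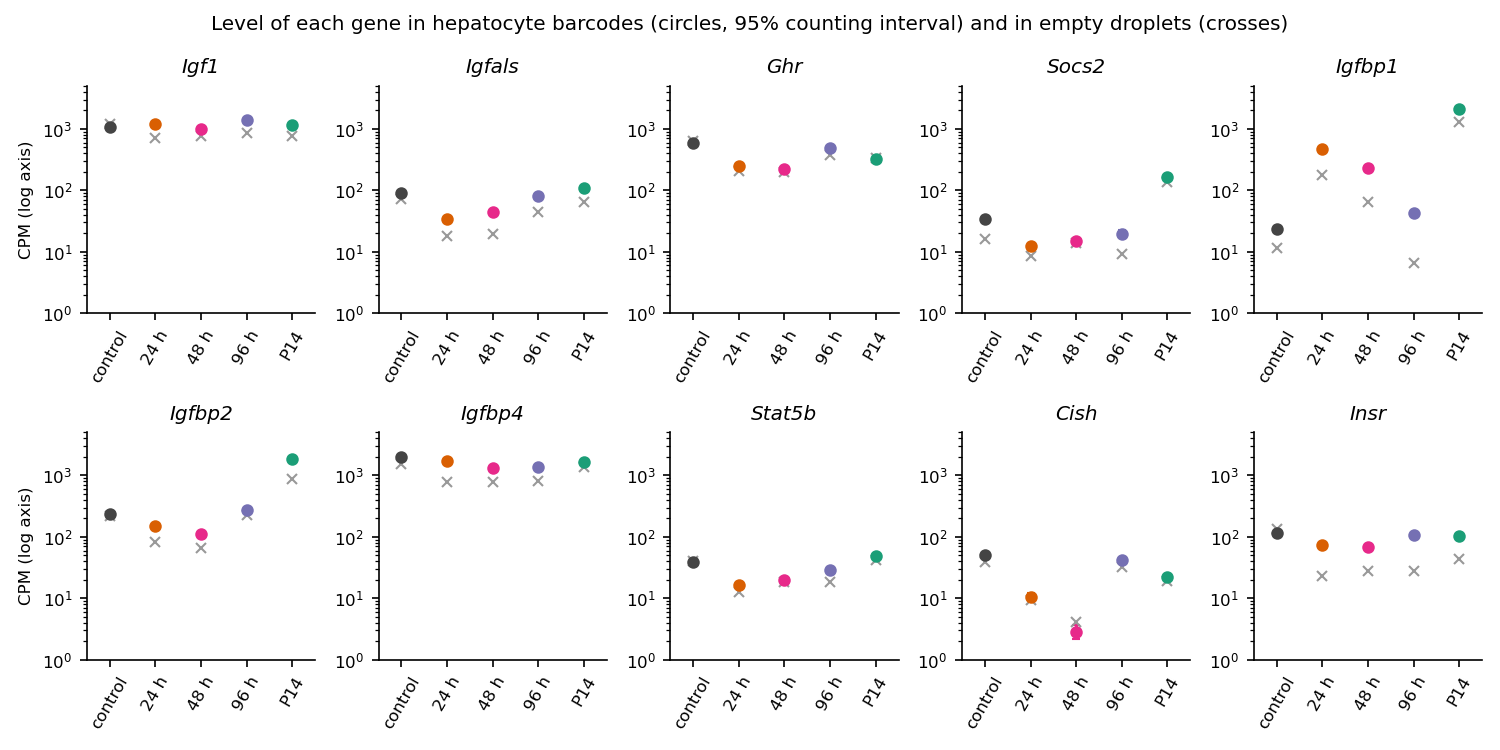
Level of the 10 genes in hepatocyte barcodes of the 5 libraries, in CPM on a log axis, as circles with 95% counting intervals, mostly smaller than the symbols, and in empty droplets as grey crosses. Igfbp1 spans from 23.6 CPM in the adult control to 2075 CPM in P14, whereas Igf1 stays between 988 and 1411 CPM.

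Igf1, the hormone of the axis, was at 1083 CPM in the adult control, 1218 CPM at 24 h, 988 CPM at 48 h, 1411 CPM at 96 h and 1154 CPM in P14. No library differed from the adult control by 2-fold: Igf1 was 1.13-fold higher at 24 h (interval 1.10 to 1.15), 1.10-fold lower at 48 h (1.07 to 1.12), 1.30-fold higher at 96 h (1.28 to 1.33) and 1.07-fold higher in P14 (1.05 to 1.08). At least 1 Igf1 UMI was found in 99.7% or more of hepatocyte barcodes in every library, and in 96.2% to 99.1% after each barcode was thinned to 3500 UMIs. T and NK barcodes, where Igf1 did not exceed free RNA, held an Igf1 UMI in 78.8% of barcodes in the control (median 6135 UMIs), in 38.4% in P14 (median 7542 UMIs), and in 37.5% (24 h), 24.2% (48 h) and 45.8% (96 h) after hepatectomy. Empty droplets held Igf1 at 1198 CPM in the adult control, above the level in its hepatocytes, and at 722 to 861 CPM in the other libraries. Among barcodes under 10% mitochondrial UMIs, which the hepatocyte rule leaves out, the 48 h ratio had the other sign, with a log2 ratio of 0.76 against -0.13, and the 24 h log2 ratio was 0.86 against 0.17.

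Igfals, which encodes the acid-labile subunit of the serum IGF complex, was at 90.3 CPM in the adult control, 33.6 CPM at 24 h, 44.3 CPM at 48 h, 79.9 CPM at 96 h and 111 CPM in P14. It was 2.69-fold lower than the control at 24 h (2.44 to 2.96) and 2.04-fold lower at 48 h (1.87 to 2.23), and the 48 h value was 1.32-fold above that at 24 h (1.19 to 1.46). The 48 h log2 ratio of -1.01 was -0.49 under 10% mitochondrial UMIs and short of 2-fold in 5 of 11 alternative settings. At 96 h it lay 1.13-fold below the control (1.04 to 1.23) and in P14 1.23-fold above it (1.16 to 1.31). Of the RefSeq promoter windows for Igfals (build GRCm38.p6), 2 hold the STAT5 motif TTCNNNGAA, and the one below is shown because its match is the nearer to an annotated start. It covers chr17:24877981-24878250 on the plus strand, from 250 bases before to 20 bases after the annotated start, with the STAT5 motif beginning 58 bases before that start. The other capitals mark the reverse complement of the FoxO motif GTAAACA, 242 bases before the start, and a GC box (GGGCGG), 34 bases before it.
Igfals: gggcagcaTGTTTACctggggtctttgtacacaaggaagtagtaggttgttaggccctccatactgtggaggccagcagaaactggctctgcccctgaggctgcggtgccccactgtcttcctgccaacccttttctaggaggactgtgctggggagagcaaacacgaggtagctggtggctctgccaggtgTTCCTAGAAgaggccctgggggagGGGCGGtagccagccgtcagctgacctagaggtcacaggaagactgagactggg

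Ghr, the growth hormone receptor, was at 596 CPM in the adult control, 252 CPM at 24 h, 222 CPM at 48 h, 495 CPM at 96 h and 328 CPM in P14. The control was highest, with 24 h and 48 h lowest. Ghr was 2.37-fold lower at 24 h (2.29 to 2.46), 2.69-fold lower at 48 h (2.59 to 2.79) and 1.20-fold lower at 96 h (1.17 to 1.24), so that the 96 h level was 2.23-fold that at 48 h (2.15 to 2.32). In P14 it was 1.82-fold lower than in the adult control (1.77 to 1.86), and past 2-fold at 10% to 20% mitochondrial UMIs (log2 ratio -1.02). Under 10% mitochondrial UMIs Ghr was short of 2-fold, with log2 ratios of -0.75 at 24 h and -0.97 at 48 h. Empty droplets held Ghr at 628 CPM in the adult control and 340 CPM in P14, above the hepatocyte levels of those libraries, and at 199 to 371 CPM in the operated libraries. At equal depth, 87.9% of control barcodes held a Ghr UMI, against 60.3% (24 h), 56.7% (48 h), 80.3% (96 h) and 68.9% (P14), while without thinning the shares were 95.3% to 99.7%. T and NK barcodes, a class where Ghr was at or near its free-RNA level, held a Ghr UMI in 60.7% of barcodes in the adult control (median 6135 UMIs) and in 5.78% at 48 h (median 5808.5 UMIs).

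Stat5b, the transcription factor activated by that receptor, was at 39.4 CPM in the adult control, 16.8 CPM at 24 h, 19.8 CPM at 48 h, 29.0 CPM at 96 h and 49.5 CPM in P14. It was 2.35-fold lower at 24 h (2.05 to 2.71), 1.99-fold lower at 48 h (1.74 to 2.27) and 1.36-fold lower at 96 h (1.19 to 1.55), and 1.26-fold higher in P14 (1.15 to 1.38). The 48 h value misses the 2-fold line by a margin far smaller than its interval. Under 10% mitochondrial UMIs the log2 ratios were -1.95 (24 h), -2.47 (48 h) and -1.51 (96 h) in place of -1.19, -0.96 and -0.43, so Stat5b passed 2-fold at all 3 times, and a pseudocount of 10 CPM took the 24 h value to -0.89. Jak2, the kinase bound to the receptor, had log2 ratios of -0.18, -0.39, 0.01 and -0.76 at 24 h, 48 h, 96 h and in P14. Stat5a, the close relative of Stat5b, had log2 ratios of -0.65, -0.29, -0.44 and 0.72. Neither reached 2-fold, from control levels of 12.2 CPM for Jak2 and 9.31 CPM for Stat5a. Empty droplets held Stat5b at 40.0 CPM in the adult control, near its hepatocyte level, and at 12.4 to 42.3 CPM in the other libraries.

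Cish encodes CIS, a suppressor of cytokine signalling that is itself induced by STAT5. It was at 50.8 CPM in the adult control (676 UMIs), 10.5 CPM at 24 h (205 UMIs), 2.83 CPM at 48 h (59 UMIs), 41.3 CPM at 96 h (555 UMIs) and 22.3 CPM in P14 (1442 UMIs). The control and 96 h were highest and 48 h was lowest. Cish was 4.83-fold lower than the control at 24 h (4.13 to 5.68) and 17.9-fold lower at 48 h (13.7 to 23.8), and the 96 h level was 14.6-fold that at 48 h (11.1 to 19.4). At 96 h it lay 1.23-fold below the control (1.10 to 1.38) and in P14 2.27-fold below it (2.07 to 2.49), a difference short of 2-fold with TMM (log2 ratio -0.87), a pseudocount of 10 CPM (-0.91) or under 10% mitochondrial UMIs (-0.61). The 24 h log2 ratio of -2.17 was -1.57 with a pseudocount of 10 CPM and -2.99 under 10% mitochondrial UMIs, and the 48 h ratio of -3.76 was -2.24 and -2.89. The 48 h hepatocyte level was below the 4.15 CPM of that library's empty droplets. At 24 h the hepatocyte level was near the 9.50 CPM of empty droplets, which held Cish at 38.7 CPM in the adult control. The RefSeq promoter window of Cish is shown because it holds the STAT5 motif at 2 places, starting at bases 1 and 12 counted from 1 at the annotated start. It covers chr9:107296409-107296678 on the plus strand, and the other capitals mark reverse complements of the GC box.
Cish: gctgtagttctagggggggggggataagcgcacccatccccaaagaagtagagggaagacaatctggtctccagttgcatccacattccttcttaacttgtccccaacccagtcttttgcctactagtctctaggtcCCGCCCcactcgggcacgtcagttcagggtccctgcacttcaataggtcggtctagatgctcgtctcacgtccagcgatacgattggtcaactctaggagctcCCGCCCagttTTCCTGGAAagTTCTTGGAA

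Socs2, the other STAT5-induced inhibitor of growth hormone signalling, was at 34.6 CPM in the adult control, 12.3 CPM at 24 h, 14.9 CPM at 48 h, 19.8 CPM at 96 h and 168 CPM in P14. P14 stood above all 4 adult libraries, and the 3 operated libraries stood below the control. Socs2 was 2.80-fold lower at 24 h (2.39 to 3.29), 2.32-fold lower at 48 h (2.00 to 2.69) and 1.75-fold lower at 96 h (upper bound 2.04). At 48 h the log2 ratio of -1.16 became -0.25 under 10% mitochondrial UMIs, -0.78 at 10% to 20%, -0.84 with a pseudocount of 10 CPM and -0.89 as a mean over barcodes. At 24 h it lay just short of 2-fold under 10% mitochondrial UMIs (-0.99) and with that pseudocount. At 96 h Socs2 was thus still below the control when Cish lay within 1.23-fold of it. At 10% to 20% mitochondrial UMIs (53 barcodes at 96 h) this order was reversed, with log2 ratios of -0.42 for Socs2 and -0.82 for Cish. In P14 Socs2 was 4.86-fold higher than in the adult control (4.42 to 5.34), and its log2 ratio of 2.25 was 2.98 under 10% mitochondrial UMIs. Socs2 was positive in 9.51% of thinned control barcodes and in 45.4% of thinned P14 barcodes (33.3% and 96.0% without thinning). Empty droplets held Socs2 at 16.1 CPM in the control and at 135 CPM in P14, so free RNA also differed between these libraries. In the operated libraries they held 8.59 CPM (24 h), 14.0 CPM (48 h) and 9.21 CPM (96 h). The 48 h hepatocyte level of Socs2 was thus near that of its empty droplets. Neutrophil barcodes, with no Socs2 above free RNA, held a UMI in 0 of 53 barcodes in the control (exact upper limit 6.72%, median 3254 UMIs) and in 9.09% in P14 (median 7125 UMIs). T and NK barcodes, which carry Socs2 themselves, had their markers at no more than 25.2 CPM in all within hepatocyte barcodes. The part of T and NK cell RNA in the Socs2 of hepatocyte barcodes was not tested.

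Igfbp1, a binding protein that limits free IGF and whose gene is repressed by insulin, showed the widest range of the 10 genes. It was at 23.6 CPM in the adult control (314 UMIs), 468 CPM at 24 h (9140 UMIs), 235 CPM at 48 h (4897 UMIs), 42.9 CPM at 96 h (577 UMIs) and 2075 CPM in P14 (133995 UMIs). P14 was highest, the adult control lowest, and the 3 operated libraries were ordered by time. Igfbp1 was 19.9-fold higher than the control at 24 h (17.7 to 22.3), 9.97-fold at 48 h (8.89 to 11.2), 1.82-fold at 96 h (1.58 to 2.10) and 88.0-fold in P14 (78.8 to 98.6). Among barcodes under 10% mitochondrial UMIs the 96 h ratio had the other sign, with a log2 ratio of -0.56, and the 48 h log2 ratio was 2.4 in place of 3.26. In empty droplets the same order held, with 11.4 CPM in the adult control, 181 CPM at 24 h, 64.0 CPM at 48 h and 1297 CPM in P14, except that 96 h was lowest at 6.56 CPM.

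Igfbp1 UMIs were found in most barcodes at 24 h, 48 h and in P14, but in a minority at 96 h. At equal depth Igfbp1 was found in 8.22% of control barcodes, 69.8% of those at 24 h, 50.6% at 48 h, 11.7% at 96 h, and 99.0% for P14, and without thinning in 22.4%, 94.2%, 91.7%, 37.0% and 99.95%. T and NK barcodes held an Igfbp1 UMI in 2.00% of barcodes in the adult control, 11.1% at 24 h (median 4506.5 UMIs, against 19562 in hepatocytes) and 52.1% in P14 (median 7542 UMIs). The 10% of barcodes with the most Igfbp1 held 31.6% of the thinned Igfbp1 UMIs at 24 h and 20.9% in P14, beside 20.4% for Igf1 in the adult control. These shares also depend on the mean thinned count, which was 1.59, 7.60 and 3.70 UMIs in the same order. They are therefore not read as a comparison of evenness. The variance of thinned counts over barcodes was 1.67 times the mean at 24 h and 2.26 times in P14, where 1 would be sampling alone. The median P14 barcode held 7 of 3500 UMIs from Igfbp1, and the 10th and 90th percentiles were 3 and 13.

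**Figure D2:**
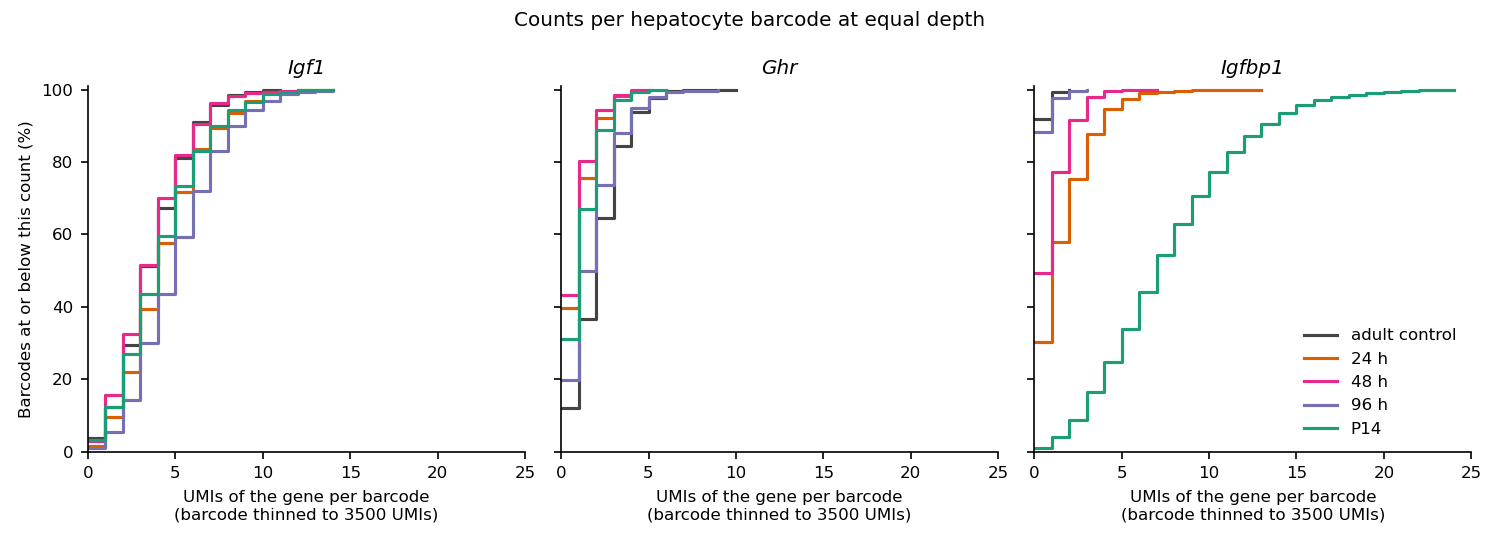
Share of hepatocyte barcodes, in percent, with at most the number of UMIs on the x axis, for Igf1, Ghr and Igfbp1, after each barcode was thinned to 3500 UMIs; each line is a library. The Igf1 lines lie close together, the 24 h and 48 h lines for Ghr lie left of the control, and the P14 line for Igfbp1 lies far right of the others, starting at about 1% of barcodes with 0 UMIs.

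The RefSeq promoter window of Igfbp1 is shown because Igfbp1 had the largest ratios. None of the motifs first searched was found in it. The core CAAAACA of the insulin response element, which FOXO proteins bind in this promoter, was added to the search after the window had been read, and it begins 108 bases before the annotated start. The window covers chr11:7197537-7197806 on the plus strand, and capitals mark that core.
Igfbp1: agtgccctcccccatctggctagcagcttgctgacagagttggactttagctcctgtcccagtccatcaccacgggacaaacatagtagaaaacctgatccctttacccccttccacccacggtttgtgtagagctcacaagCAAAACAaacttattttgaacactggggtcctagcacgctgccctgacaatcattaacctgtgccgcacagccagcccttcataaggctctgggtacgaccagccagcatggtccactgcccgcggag

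Windows were matched for 8 of the 10 genes (13 windows), all but Socs2 and Insr, and searched over 300 bases on both strands. TTCNNNGAA was in 3 of the 13, namely the Cish window and 2 Igfals windows, and in 8.3% of all 32851 windows. The wider STAT motif, with 4 bases between TTC and GAA, was in none of the 13 and in 6.95% of all. GTAAACA was in 1 of the 13 and in 3.65% of all, CAAAACA in 1 and in 6.28%, TATAAA in 2 (Igfbp4 and Ghr) and in 13.6%, and GGGCGG in 6 and in 35.7%. No matches overlapped one another in these windows. A match is a run of letters and not a measured binding site, and the window of Igf1 held none of these motifs.

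Igfbp2, another binding protein secreted by hepatocytes, was at 236 CPM in the adult control, 148 CPM at 24 h, 113 CPM at 48 h, 273 CPM at 96 h and 1881 CPM in P14. P14 was far above the adult libraries, and 24 h and 48 h were the lowest. Igfbp2 was 1.59-fold lower than the control at 24 h (1.51 to 1.67) and 2.09-fold lower at 48 h (1.98 to 2.20), then 1.16-fold higher at 96 h (1.10 to 1.21) and 7.98-fold higher in P14 (7.70 to 8.27). Under 10% mitochondrial UMIs its log2 ratios were -0.07 at 24 h and -0.29 at 48 h, in place of -0.67 and -1.06. After hepatectomy it therefore lay below the control at 24 h and 48 h, when Igfbp1 lay above it, while both genes were higher in P14. At equal depth the positive share was 52.1% in the control and 39.4% (24 h), 30.9% (48 h), 54.2% (96 h) and 98.4% (P14) in the others. Empty droplets held Igfbp2 at 215 CPM in the control and 872 CPM in P14, and T and NK barcodes held an Igfbp2 UMI in 26.0% of barcodes in the control (median 6135 UMIs), 31.5% in P14 (median 7542 UMIs), and 3.85% (24 h), 3.11% (48 h) and 19.4% (96 h) after hepatectomy.

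Igfbp4, a binding protein that inhibits IGF action, was at 2016 CPM in the adult control, 1722 CPM at 24 h, 1317 CPM at 48 h, 1362 CPM at 96 h and 1661 CPM in P14. It was 1.17-fold lower than the control at 24 h (1.15 to 1.19), 1.53-fold at 48 h (1.51 to 1.56) and 1.48-fold at 96 h (1.45 to 1.51). Under 10% mitochondrial UMIs the 24 h ratio had the other sign, with a log2 ratio of 0.18 against -0.23, and so had P14, at 0.72. With TMM scaling the log2 ratio in P14 was 0.01 instead of -0.28, so no direction is given for Igfbp4 in P14. Its 96 h level was near that of 48 h, whereas Igfals, Ghr, Stat5b, Cish and Insr were each higher at 96 h than at 48 h by 1.46-fold or more.

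Insr, the insulin receptor, was at 116 CPM in the adult control, 74.8 CPM at 24 h, 67.3 CPM at 48 h, 106 CPM at 96 h and 102 CPM in P14. It was 1.54-fold lower at 24 h (1.44 to 1.66), 1.72-fold lower at 48 h (1.60 to 1.85) and 1.10-fold lower at 96 h (1.02 to 1.18). Among barcodes under 10% mitochondrial UMIs its log2 ratios were -1.60, -2.29 and -1.77 in place of -0.62, -0.77 and -0.13, past 2-fold in all 3, and 0.65 in P14. Empty droplets held Insr at 136 CPM in the adult control, above the level in its hepatocytes, and at 23.1 to 43.8 CPM in the other libraries. The P14 log2 ratio was -0.18, or 0.10 with TMM scaling, so its sign depends on the scaling. The 96 h and P14 levels were the only neighbours in the order of any of the 10 genes that lay within counting error of each other. Igf1, Cish and Insr each overlap an antisense gene that was also listed (Igf1os, Gm17041 and Gm16180), and the sources used here do not state whether reads were counted by strand.

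**Figure D3:**
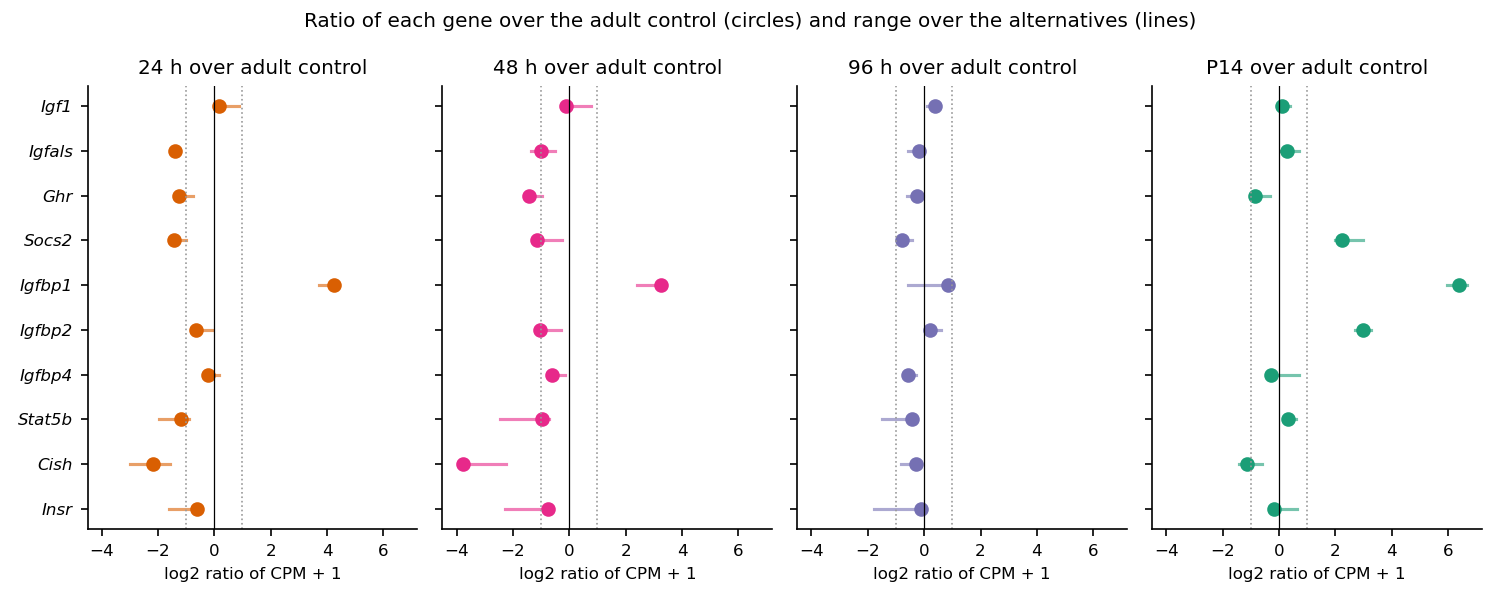
Log2 ratio of each gene over the adult control, one panel per library (circles), with the range over the 11 alternative settings as lines; dotted lines mark 2-fold. At 24 h and 48 h Igfbp1 lies right of the upper line while Cish, Ghr, Socs2 and Igfals lie left of the lower line, and at 96 h all circles lie between the lines.

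The other genes of growth hormone signalling were read from a list of 12, all measured. At 24 h, 4 were at least 2-fold lower and 1 higher, with a median log2 ratio of -0.70, beside 7.13% lower, 8.51% higher and a median of -0.00086 over all genes. At 48 h, 5 were lower and 1 higher (2 higher with TMM), with a median of -0.39. At 96 h, 3 were lower (4 with TMM) and 2 higher with a median of -0.22, and in P14 4 were lower and 1 higher with a median of -0.54. Over all genes the medians were -0.08 at 48 h, 0.04 at 96 h and -0.26 in P14, with 7.63%, 1.88% and 13.8% lower and 8.3%, 4.07% and 7.89% higher. Socs1, an inhibitor of JAK kinases, was at 9.99 CPM in the adult control and at most 0.48 CPM in the other 4 libraries. It is among the lower genes in each comparison and passed the expression filter only through the control. In P14 the same held for Socs3 and Bcl6, so the lower count there is not read as a result. Socs3, an inhibitor induced by STAT3, was at 69.7 CPM in the control, 40.4 CPM at 24 h, 22.5 CPM at 48 h, 12.9 CPM at 96 h and 1.90 CPM in P14. Bcl6, a repressor that binds many STAT5 sites, was at 49.0 CPM in the control, 10.0 CPM at 24 h, 18.7 CPM at 48 h, 5.21 CPM at 96 h and 2.46 CPM in P14. Prlr, the prolactin receptor, which also signals through STAT5, was the 1 gene of this list higher in every comparison, at 49.8 CPM in the control, 126 CPM at 24 h, 177 CPM at 48 h, 114 CPM at 96 h and 269 CPM in P14. Onecut1, a liver transcription factor, was at 19.0 CPM in the control, 6.87 CPM at 24 h, 7.06 CPM at 48 h and 56.4 CPM at 96 h. Socs7 was 2.35-fold lower at 24 h and 2.84-fold lower at 48 h.

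Of 13 further IGF genes, only Igf2r reached 5 CPM in the adult libraries, at 33.7 to 42.9 CPM in those 4 and 33.8 CPM in P14. Igf2, the fetal and neonatal IGF, had 0 UMIs in the adult control and 154 CPM in P14, at least 682-fold higher against a floor of 3 counts in the control library. Igf2bp3, an RNA-binding protein of early development, was at 41.9 CPM in P14 (2705 UMIs) against 2 UMIs in the adult control. Igf1r, the receptor for IGF-1, had 8 UMIs in the adult control and 14 in P14, and Igfbp3 had 5 and 7, so hepatocytes of both held almost no message for either.

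Among 14 further insulin signalling genes, 13 were measured in each operated library, and none was at least 2-fold higher there. At 24 h 1 was lower, at 48 h 3 (2 with TMM) and at 96 h 1, against 7.13%, 7.63% and 1.88% of all genes, so the 24 h count was near the background. Foxo3 was 2.22-fold lower at 24 h and 2.96-fold lower at 48 h, where Irs1 (2.39-fold) and Ceacam1 (2.07-fold) were also lower, and at 96 h it was Irs2 (2.15-fold). The regulatory subunit Pik3r1 was 1.79-fold lower at 24 h and 1.90-fold at 48 h, and Akt1 1.66-fold lower at 96 h. Foxo1, the transcription factor that insulin keeps out of the nucleus, had log2 ratios between -0.29 and 0.42 over the 4 comparisons. In P14, 3 of the 14 were lower (2 with TMM), with a median log2 ratio of -0.89, beside 13.8% of all genes lower and a median of -0.26. They were Irs1 (2.93-fold), Foxo3 (3.12-fold) and Ide, which encodes an insulin-degrading enzyme (log2 ratio -1.04). Irs2 was 2.39-fold higher there. Grb10, an inhibitor of insulin and IGF receptors, was at 44.5 CPM in P14 against 3.23 CPM and passed the expression filter only through P14.

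Of 15 genes known to respond to insulin, 13 were measured in each operated library. At least 2-fold lower were 4 at 24 h, 4 at 48 h (3 with TMM), 1 at 96 h and 2 in P14 (1 with TMM), against 7.13%, 7.63%, 1.88% and 13.8% of all genes. Trib3 and Txnip at 24 h and 48 h, Sesn1 at 48 h and Trib3 in P14 reached 5 CPM only in the control. The lower counts of those libraries are therefore not read as a result. No count of higher genes is read, since Sik1 (2.25 CPM in the control) and, in P14, Pdk4 (0.15 CPM in the control) passed the expression filter only through the library where they were higher. Pck1 and G6pc, which encode enzymes of gluconeogenesis and are also repressed by insulin, lay within 2-fold of the control at 24 h and 48 h. Pck1 was 1.29-fold lower at 24 h and 1.80-fold lower at 48 h, and G6pc was 1.20-fold and 1.69-fold higher. In P14, G6pc was 7.12-fold higher and Pck1 was at 2663 CPM against 2743 CPM. Sik1 was 6.62-fold higher at 24 h and 5.35-fold at 48 h, Trib3 5.10-fold and 4.94-fold lower, and Txnip 3.81-fold and 4.78-fold lower. Angptl8 was 2.24-fold higher at 24 h, and at 96 h it was 3.58-fold higher while Angptl4 was 2.28-fold lower.

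Most genes of a list whose level in male liver depends on pulses of growth hormone were lower after hepatectomy. Of 14 such genes, 12 were at least 2-fold lower at 24 h and at 48 h, and 10 at 96 h, with median log2 ratios of -1.42, -2.18 and -1.72 (11, 11 and 10 with TMM). Over all genes 7.13%, 7.63% and 1.88% were 2-fold lower at these times, and the medians were -0.00086, -0.08 and 0.04. Hsd3b5 was at 180 CPM in the control, 21.7 CPM at 24 h, 24.5 CPM at 48 h and 49.7 CPM at 96 h. Selenbp2 was at 1259 CPM in the control, 150 CPM at 24 h, 161 CPM at 48 h and 566 CPM at 96 h, and Cyp4a12a at 284, 65.5, 53.2 and 68.5 CPM. Elovl3 was at 254 CPM in the control and 50.4 CPM at 96 h. Mup11 was at 27298 CPM in the control and 385 CPM at 96 h, although reads may not tell the near-identical Mup genes apart. Mup3, Mup7 and Mup20 of the same family were also among the genes lower at 96 h. The 4 not past 2-fold at 96 h, named after their values were seen, were Cyp2d9, Serpina1e, Slco1a1 and C8b. At 96 h 10 of these 14 genes were thus past 2-fold and none of the 10 axis genes was, beside 1.88% of all genes lower. In P14 all 14 were lower, with a median log2 ratio of -8.07, beside 13.8% of all genes lower and a median of -0.26. Most of the 14 passed the expression filter there only through the control, so neither this count nor this median is read as a result. Cyp2d9, Serpina1e, Selenbp2 and C8b passed it in both libraries. Cyp2d9 was at 104 CPM in P14 against 620 CPM in the control, and Selenbp2 at 175 against 1259 CPM. Serpina1e was at 173 against 13135 CPM and C8b at 74.5 against 417 CPM. Female-biased genes were given by a list of 15, of which most of those measured passed the expression filter only through P14, so no count is read from it. In P14, the library that carries Xist, Sult2a1 was at 853 CPM, Cyp3a44 at 232 CPM, Hao2 at 218 CPM and Cyp2b9 at 191 CPM, and the control held 2 UMIs of Hao2 and 0 UMIs of each of the others. In the operated libraries Rtn4 and, at 96 h, Cyp2b10 were the female-biased genes measured.

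Within a library, hepatocyte barcodes were ranked from periportal to pericentral by the UMIs of 12 genes for each zone, none of them among the 10, and the barcodes at each end were compared (308 and 308 in the adult control). The score is a range and not a cell type. Glul, a pericentral gene kept out of the score, was 12.3-fold lower at the periportal end in the adult control and between 7.69-fold and 48.6-fold lower in the others. Igf1 was higher at the periportal end in all 5 libraries, from 1.19-fold (1.15 to 1.23) at 48 h to 1.34-fold (1.29 to 1.39) at 96 h. Ghr was lower at the periportal end in all 5, by 1.23-fold in the control, 1.42-fold at 24 h, 1.39-fold at 48 h and 1.07-fold at 96 h and in P14. Socs2 was 1.76-fold lower at the periportal end in the control, 2.22-fold at 48 h, 3.33-fold at 96 h and 1.53-fold in P14, but at 24 h the ratio of the ends was 1.02 with an interval from 0.75 to 1.41. Igfbp1 was lower at the periportal end in each library, by 1.43-fold in the control, 1.21-fold at 24 h, 1.18-fold at 48 h, 2.44-fold at 96 h and 1.30-fold in P14. Both ends were thus far above the adult control at 24 h, with 420 CPM at the periportal and 509 CPM at the pericentral end. Igfbp2 had no measurable slope in the control. It was higher at the periportal end at 24 h (1.30-fold, 1.18 to 1.43), 48 h (2.08-fold, 1.86 to 2.34) and in P14 (1.13-fold), and 1.09-fold lower there at 96 h. Alb was 2.08-fold higher at the periportal end in the control and 1.03-fold in P14, and the part of total hepatocyte transcripts in these slopes was not tested.

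**Figure D4:**
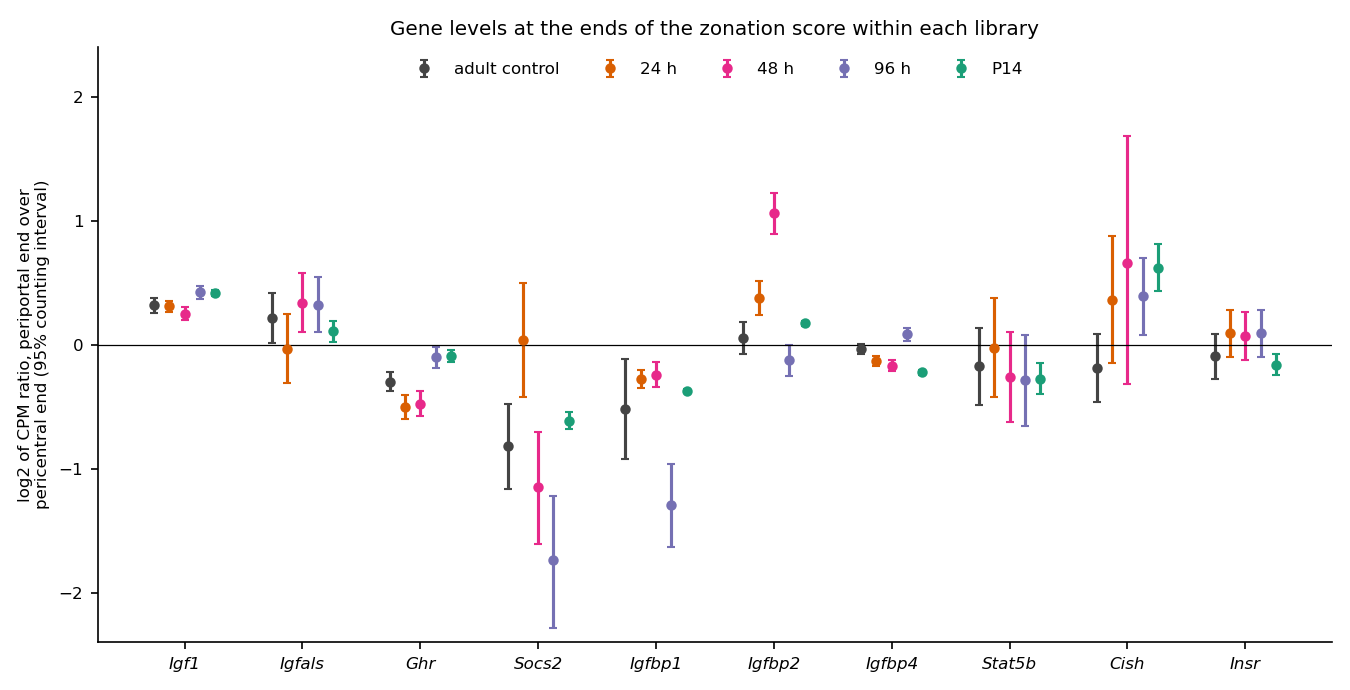
Log2 ratio of CPM at the periportal end over the pericentral end of the zonation score for the 10 genes, one colour per library, with 95% counting intervals. Igf1 lies above 0 and Ghr and Igfbp1 lie below 0 in all 5 libraries, and the Igfbp2 point at 48 h stands above its other points.

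Hepatocyte barcodes with at least 3 of 24 mitosis genes after thinning were few in the adult control (4) and numbered 154 (24 h), 292 (48 h), 70 (96 h) and 238 (P14). They were set against barcodes with none. The control is left out here because 4 barcodes are too few. Igf1 was lower in mitosis-positive barcodes by 1.24-fold at 24 h (1025 against 1272 CPM), 1.27-fold at 48 h and 1.42-fold at 96 h, and in P14 it was at 1029 against 1176 CPM. Igfbp4 was lower by 1.26-fold, 1.37-fold, 1.47-fold and 1.07-fold in the same order, and Igfals by 1.47-fold, 1.24-fold, 1.25-fold and 1.45-fold. Ghr was also lower, by 1.12-fold, 1.27-fold, 1.27-fold and 1.10-fold, and Igfbp2 by 1.13-fold, 1.17-fold, 1.17-fold and 1.27-fold. No value over all genes is set beside this split, so these differences are not read as particular to these genes. Igfbp1 at 48 h was at 177 CPM in positive and 286 CPM in negative barcodes, 1.62-fold lower. It was 1.11-fold lower at 24 h and 1.15-fold lower in P14, and at 96 h 1.13-fold higher with an interval that spans 1 (0.86 to 1.47), or 1.39-fold higher (1.01 to 1.87) with at least 5 mitosis genes. The low levels of Ghr, Socs2 and Cish at 24 h and 48 h were present in both sets. Among mitosis-negative barcodes, Ghr was at 252 CPM at 24 h and 251 CPM at 48 h against 596 CPM in the control, and Cish was at 11.5 and 2.74 CPM against 49.5 CPM. In the same barcodes Socs2 was at 12.9 and 17.1 CPM against 33.3 CPM, short of 2-fold at 48 h. Socs2 at 96 h was higher in mitosis-positive barcodes, at 40.1 CPM in positive and 16.6 CPM in negative barcodes, 2.42-fold higher (1.77 to 3.28). At 48 h it was 1.42-fold lower in positive barcodes (1.09 to 1.84) and in P14 1.15-fold lower (1.07 to 1.22). The 24 h interval spanned 1 (1.13-fold lower, 0.78 to 1.68). Mitosis-positive barcodes were deeper after hepatectomy, with a median of 41980 against 32193 UMIs at 48 h, and the part of depth was not tested.

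For each of the 10 genes, the 3 genes with the most similar pattern were taken by Euclidean distance over the 4 log2 ratios, among 6056 genes of at least 20 CPM in some library. The 4 ratios share the adult control. Igf1 lay nearest to Apopt1, Tmem60 and Crb3 (distances 0.15 to 0.17), and Igfals to Sardh, Mcc and Sirt3 (0.15 to 0.29). Ghr lay nearest to Akr1c14, Abhd14b and Fam210a (0.17 to 0.24), Stat5b to Mgll, Fcgrt and Flii (0.16 to 0.23), and Insr to Dnmt3a, Npepl1 and Nr3c1 (0.11 to 0.16). Igfbp4 lay nearest to Tpst1, Tuba4a and Aqp9 (0.11 to 0.19). The other 4 genes had no close neighbour: Socs2 was 0.78 from Abcg5, then Rogdi and Tsc22d1, Igfbp2 0.53 from Sult1c2, then Acss3 and Gm45051, Cish 1.04 from Tef, then Klf10 and Foxq1, and Igfbp1 1.93 from Nipal1, then Akr1b7 and Nid1. None of the 10 was among the nearest 3 of another.

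Outside hepatocytes, barcodes were gated by cell class markers, and each gene was set beside the level that hepatocyte RNA in the droplet would give. That level was scaled by Alb, from empty droplets and from hepatocytes, a comparison chosen after seeing the data. In T and NK barcodes (73 in P14, 600 in the control, and 208, 450 and 155 at the successive times) Igf1 was at 259 CPM in the control against 263 CPM from free RNA, and at 60.2 CPM against 56.1 CPM in P14. Igfbp1 was at 24.7 CPM against 26.6 CPM at 24 h and at 88.8 CPM against 96.3 CPM in P14. The source of these Igfbp1 UMIs was not tested. Igfbp1 had an interval above the free-RNA level in no class and no library. Igf1 was above it in macrophage and monocyte barcodes at 48 h (47.0 against 25.8 CPM) and in P14, in neutrophil barcodes at 24 h (133 against 97.9 CPM) and 48 h, and in mesenchymal barcodes at 96 h.

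Socs2, Cish, Insr, Igfbp4 and Stat5b were above the free-RNA level in all 5 libraries in at least 1 class. Socs2 in T and NK barcodes was at 96.5 CPM in the adult control, 144 CPM at 24 h, 69.8 CPM at 48 h, 53.8 CPM at 96 h and 88.8 CPM in P14, against 0.90 to 10.0 CPM from free RNA. With a stricter class gate, at 1% of UMIs from class markers, it was at 118 CPM in the control, 91.6 CPM at 24 h and 102 CPM at 48 h, so the order of the control and 24 h depends on the gate. Cish in T and NK barcodes was at 53.8, 36.1, 38.7, 45.3 and 42.1 CPM in the same order, so its 48 h level there was 38.7 CPM when hepatocytes had 2.83 CPM. With the stricter gate Cish was at 92.9 CPM in the control and at 66.9, 55.6 and 63.2 CPM in the operated libraries. Insr in endothelial barcodes (47, 182, 61, 87 and 38) was at 241 CPM in the control (interval 169 to 334), 460 CPM at 24 h (402 to 524), 201 CPM at 48 h, 118 CPM at 96 h and 105 CPM in P14, against at most 54.6 CPM from free RNA. At 24 h Insr was thus above the control in endothelial barcodes and below it in hepatocytes, and the difference between these contrasts has no replicate and was not tested. Igfbp4 in endothelial barcodes was at 1615, 693, 1259, 1081 and 1262 CPM, above its free-RNA level of 81.0 to 626 CPM in each library. Stat5b in the same barcodes was at 80.4, 37.1, 88.2, 52.3 and 45.7 CPM, also above free RNA in each.

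**Figure D5:**
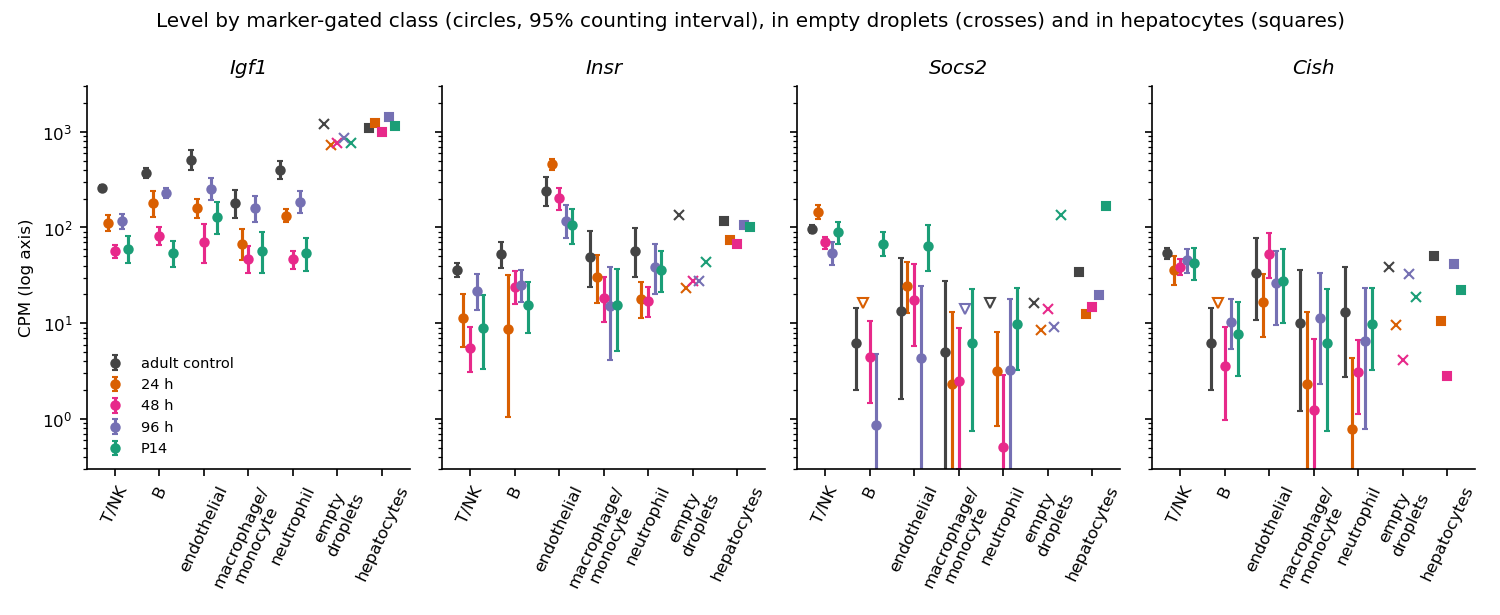
Level of Igf1, Insr, Socs2 and Cish, in CPM on a log axis, in marker-gated classes (circles with 95% counting intervals, open triangles for the upper limit at 0 UMIs), empty droplets (crosses) and hepatocytes (squares), one colour per library. Igf1 lies below the empty droplets in every class, Insr is highest in endothelial barcodes at 24 h (460 CPM), and Socs2 and Cish in T and NK barcodes lie above 35 CPM in all 5 libraries.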

How the data were processed

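Per the labels' protocols, livers were perfused in steps, dead cells were depleted with a kit, and 10x v3 libraries were read on a NovaSeq. The submitters' processing notes name bcl2fastq 2.17.1.14, Cell Ranger, Seurat 3.1 and mm10. The deposited matrices hold whole-number UMI counts per gene and barcode, unfiltered and not normalized (6794880 barcodes each, software 3.0.2 per the file headers). From these, CPM, exact intervals, 2-fold calls and thinning to 3500 UMIs were computed with Python 3.11.15, numpy 2.4.6 and scipy 1.17.1, and TMM factors with edgeR 4.0.16. All hepatocyte barcodes hold at least 3500 non-mitochondrial UMIs, so none was left out. Other classes needed at least 1000 UMIs, 3 markers and 0.5% of UMIs from one list. No doublet caller was run. The calls and intervals were run on simulated Poisson counts. These hold no spread between barcodes or animals, so the run checks the computation only. The 10 genes, the gene lists, and the rule that names genes (all 10, up to 4 with the largest ratios per list and library, a fixed set of pathway genes, and the 3 nearest patterns) were chosen with earlier results of these data known. Promoter windows are from RefSeq (GRCm38.p6) and gene positions from GENCODE M21. The free-RNA level scaled by Alb was chosen after seeing the data. Values of some listed genes are not reported here.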

Additional observations from a re-analysis of the deposited data

How the results depend on the processing

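No paired analysis was possible because each group is 1 library. The 11 settings were other mitochondrial limits, at least 10000 UMIs, CPM of all UMIs, TMM, subtraction of free RNA, removal of barcodes with other markers, a pseudocount of 10 CPM and the mean over barcodes, and the count was also taken with no minimum CPM. Of 40 ratios of the 10 genes, 16 reached 2-fold. All 16 kept their direction in every setting and 8 reached 2-fold in every setting. The other 8 were Ghr, Socs2 and Stat5b at 24 h, Igfals, Ghr, Socs2 and Igfbp2 at 48 h and Cish in P14, while Insr at 24 h, 48 h and 96 h and Stat5b at 48 h and 96 h newly passed 2-fold under 10% mitochondrial UMIs, as did Ghr in P14 at 10% to 20% (-1.02) and Stat5b at 48 h at 20% to 30% (-1.01). In all, 147 of 440 alternative values lay outside the counting interval. The intervals hold no added 1 CPM, so part of this count need not come from the settings. The main log2 ratio of Cish at 48 h, -3.76, itself lay outside its interval (-4.57 to -3.78). The count of genes past 2-fold at 48 h went from 6 to 3 with a pseudocount of 10 CPM, and at 96 h from 0 to 2 under 10% mitochondrial UMIs. The shares of all genes past 2-fold in these settings are not given here. The changes in count are therefore not read as a result about the 10 genes. The median log2 ratio at 24 h was -0.76 with a pseudocount of 10 CPM. At 48 h it was -0.78 with that pseudocount, -0.81 at 10% to 20% mitochondrial UMIs and -0.39 under 10%. At 96 h it was -0.47 at 10% to 20% and -0.51 under 10%. In P14 it was 0.12 at 10% to 20%, 0.26 at 20% to 30%, 0.68 under 10%, 0.28 with CPM of all UMIs and 0.48 with TMM. The cause was not tested for any of these. Barcodes under 10% mitochondrial UMIs numbered 150 in the adult control and 684 at 96 h, and 53 barcodes lay between 10% and 20% at 96 h. Low counts limit Cish at 48 h (59 UMIs).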
